A study of Caenorhabditis elegans with 2 samples.

Results

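Weak promoter peaks were peaks of CEH-82 chromatin immunoprecipitation followed by sequencing (ChIP-seq) that lay at gene starts but had not entered the authors' optimal list. CEH-82 (F45C12.2) is a homeobox protein of Caenorhabditis elegans. It was mapped in whole L1 larvae, the first larval stage, as a pool of males and females. All animals were of strain OP212, genotype unc-119(ed3) III; ddEx58, which expresses F45C12.2 with GFP-FLAG at the C-terminus. The 2 biological replicates formed 1 group. The antibody is listed as ceh-82, and the sources used here do not say if it recognised the tag or the protein. They call the transgene an insertion, while ddEx58 is named as an extrachromosomal array, a form that worms can lose. An untagged strain was not analysed here, so signal independent of the tagged protein could not be told apart. Of 20459 relaxed peaks in the pooled data, 18044 overlapped none of the 2346 optimal peaks by 1 bp or more. Of these, 3923 had their summit, or highest point, no more than 500 bp from a protein-coding gene start in the annotation. That is a share of 21.7% (95% Wilson interval 21.1 to 22.4%), and these 3923 peaks are the weak promoter peaks. The 1246 optimal peaks with a summit within the same distance are the optimal promoter peaks they are set against.

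Homeobox proteins bind DNA through the homeodomain, which often contacts short sequences with a TAAT core, and many direct cell fates in worm development. ChIP-seq peaks grade from strong to weak, and the irreproducible discovery rate (IDR) is a way to set a limit from how well peak ranks repeat between replicates. In worms many mature messenger ends are made by trans-splicing and many genes sit in operons, so an annotated gene start is not always the place where transcription begins.

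The windows below are 50 bases either side of the summit, on the strand of the gene, from the RefSeq WBcel235 genome. They show what the strongest weak promoter peaks look like upstream of a start, downstream of a start, and beside the strongest optimal promoter peaks. Windows that overlap an annotated UTR were passed over. Capitals mark matches, on either strand, to 8 6-mers whose shares are given further on: the preset CACGTG (an E-box), GAGAGA (a GA repeat), TAATTA (with a TAAT core) and TGATAA (of GATA type). The other 4 hold CG and are ACGCGC, then GACGCA, then GAGCGC and lastly GCGCAC. The 3 strongest upstream were those of elmd-1 (chrIII:3389497-3389597, plus strand), pnn-1 (chrV:12970738-12970838, plus strand) and imp-3 (chrIV:7789725-7789825, minus strand).
elmd-1: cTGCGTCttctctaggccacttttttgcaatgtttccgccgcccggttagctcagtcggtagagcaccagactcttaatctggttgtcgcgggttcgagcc
pnn-1: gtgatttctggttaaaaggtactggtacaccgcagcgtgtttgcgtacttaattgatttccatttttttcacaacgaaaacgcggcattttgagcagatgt
imp-3: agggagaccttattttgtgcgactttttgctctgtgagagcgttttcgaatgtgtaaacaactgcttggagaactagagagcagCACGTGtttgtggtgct
The next 3 lay downstream of the start, at F28F8.7 (chrV:15590288-15590388, minus strand) and ldh-1 (chrII:11724586-11724686, plus strand) in an intron, and at W04D12.1 (chrIII:5836910-5837010, plus strand) in a coding exon.
F28F8.7: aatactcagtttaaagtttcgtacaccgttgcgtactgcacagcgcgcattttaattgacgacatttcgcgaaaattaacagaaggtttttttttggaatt
ldh-1: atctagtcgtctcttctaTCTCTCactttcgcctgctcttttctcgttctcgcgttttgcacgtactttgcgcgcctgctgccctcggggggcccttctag
W04D12.1: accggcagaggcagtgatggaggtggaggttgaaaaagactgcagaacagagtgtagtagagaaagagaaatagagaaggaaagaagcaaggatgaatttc
The 2 strongest optimal promoter peaks lay upstream of rpl-3 (chrIII:3867523-3867623, plus strand), a ribosomal protein gene, and cdc-48.1 (chrII:10563515-10563615, minus strand), an AAA ATPase gene.
rpl-3: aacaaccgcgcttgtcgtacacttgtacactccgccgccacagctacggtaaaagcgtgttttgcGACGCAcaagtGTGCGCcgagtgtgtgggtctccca
cdc-48.1: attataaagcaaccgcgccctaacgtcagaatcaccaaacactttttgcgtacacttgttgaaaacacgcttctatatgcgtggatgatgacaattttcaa
The elmd-1 window had 55.4% G or C and overlaps an annotated tRNA gene (chrIII:3389537-3389609), and the rpl-3 window had 57.4%. The pnn-1, F28F8.7, W04D12.1 and cdc-48.1 windows held none of the 8 6-mers.

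The members were chosen by the deposited pooled signal. The optimal list consisted of exactly the 2346 strongest pooled peaks, so a peak outside it is a peak of lower signal. The signal is the authors' value from the pooled data, in a unit that is not given in the sources used here and without replicate error. Weak promoter peaks had signals of 10.99 to 30.91, with a median of 14.1, and optimal promoter peaks had signals of 30.93 to 619, with a median of 61.5. All 3923 weak promoter peaks were 280 bp wide, the usual width of pooled peaks. The strongest weak promoter peak, at elmd-1 and hecw-1, had a signal of 30.91 at pooled rank 2347. The 2 weakest optimal promoter peaks, at dhhc-9, a palmitoyltransferase gene, and at F26F12.3, had 30.93 each at ranks 2345 and 2344. The limit therefore fell within a continuous range of values. At the other end, the member at dhod-1, which encodes dihydroorotate dehydrogenase of pyrimidine synthesis, had 10.99 at rank 20456.

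The 20 strongest members, with signals of 30.27 to 30.91, included genes of several functions, and 18 of them had their summit outside protein-coding genes. At snpc-3.4, a subunit gene of the SNAP complex that starts small nuclear RNA transcription, the summit lay 12 bp upstream, and the peak overlapped peaks ranked 3813 in replicate 1 and 3302 in replicate 2. The peak 69 bp upstream of npp-16, a nuclear pore gene, ranked 3310 and 2499. The peak 219 bp upstream of dsh-2, a dishevelled gene of Wnt signalling, ranked 1906 and 3063. These peaks stood at similar ranks in both replicates. Others leaned on 1 replicate. The peak 40 bp upstream of rpn-5, a proteasome lid gene whose start faces that of the cohesin gene scc-1, ranked 1810 in replicate 1 and 18350 in replicate 2. The peak at cdt-2, the substrate receptor gene of a CUL-4 ubiquitin ligase, ranked 1240 and 13889. The peak 376 bp upstream of gid-2 ranked 1371 in replicate 2 and overlapped no peak of replicate 1, and the other 19 overlapped a peak of both. The peak 262 bp upstream of unc-42, a homeobox gene of neuron identity, ranked 5858 and 2131.

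Replicate support was next set beside that of optimal promoter peaks. It is described without a test, because the pooled signal and the optimal list were made from the same replicates. Of the weak promoter peaks, 1751 overlapped a relaxed peak of both replicates, which is 44.6% (CI 43.1 to 46.2%). Among all 18044 relaxed peaks outside the optimal list the share was 40.7%, close to that of the weak promoter peaks. Among optimal promoter peaks 1242 of 1246 overlapped both (99.7%). A further 937 weak promoter peaks (23.9%) overlapped replicate 1 only, 1113 (28.4%) overlapped replicate 2 only and 122 (3.11%) overlapped neither. Each replicate list held 30000 peaks, and a 280 bp window would overlap a peak of both at 5.44% of all positions in the genome. When each replicate was limited to its 2346 strongest peaks, 6 weak promoter peaks overlapped a peak of both, against 992 optimal promoter peaks. Among those matched in both relaxed lists, the worse of the 2 replicate ranks had a median of 16044 in weak and 1313 in optimal promoter peaks.

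Support varied widely among the weak promoter peaks with their signal. From the lowest to the highest quartile of signal, the share with both replicates was 15.2%, 28.4%, 51.7% and 83.2%. The members with the best worse rank lay near oga-1, the O-GlcNAcase gene (ranks 1706 and 1912), and dnj-7, a co-chaperone gene (1763 and 1944), both on X. The next 3 were suf-1, an mRNA cleavage factor gene (2089 and 2154), ZK154.6 (2202 and 1489), and nuaf-1 with its divergent neighbour bir-2 (2243 and 1964). The nuaf-1 peak had a signal of 18.9 and a pooled rank of 4824, while the other 4 had signals of 29.08 to 30.07. All 5 ranked among the 2346 strongest peaks of both replicates.

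**Figure D1:**
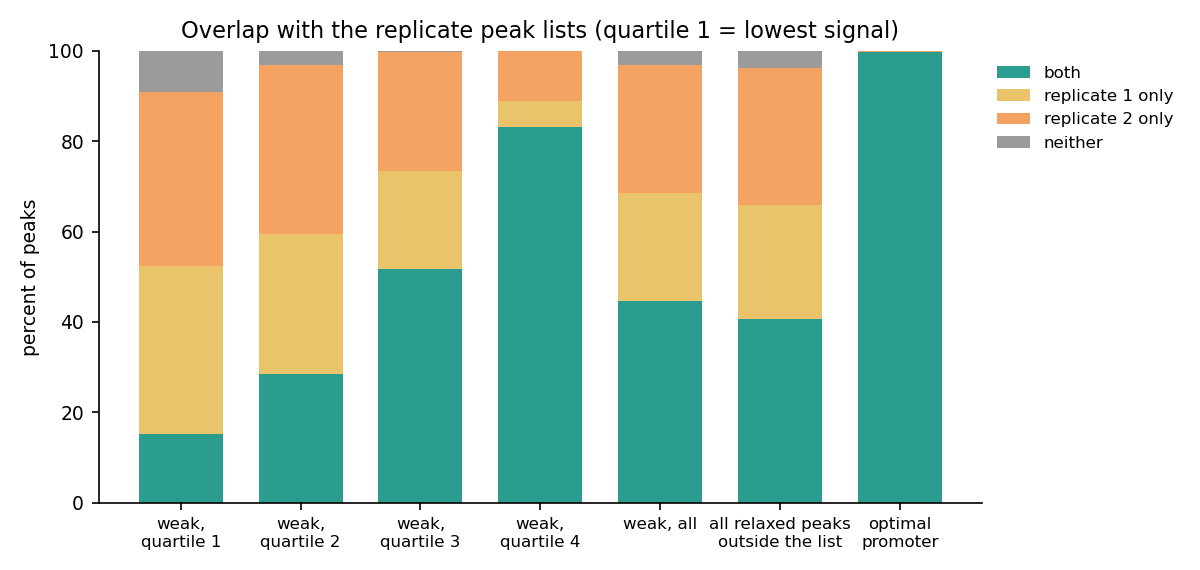
Stacked bars give the percent of peaks that overlapped a relaxed peak of both replicates, of 1 replicate only or of neither, for weak promoter peaks by quartile of pooled signal (1 lowest), all weak promoter peaks, all relaxed peaks outside the optimal list and optimal promoter peaks. Support by both replicates goes from 15.2% in the lowest quartile to 83.2% in the highest and is 99.7% in optimal promoter peaks.

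The rule used the distance from a summit to a gene start, but not the side or the part of a gene, and these were tested. Weak promoter summits were upstream of the nearest start in 2240 of 3923 peaks, 57.1% (CI 55.5 to 58.6%), against 1121 of 1246 optimal promoter summits, 89.97% (CI 88.2 to 91.5%). The difference was -32.9 percentage points (Newcombe 95% interval -35.1 to -30.5; two-sided Fisher's exact test, Benjamini-Hochberg adjusted p = 2.78e-114 over 11 position measures). Of all bases within 500 bp of a start, 47.8% are upstream of the nearest one, so weak promoter peaks lay between the annotation's own share and that of optimal promoter peaks. The test counts peaks, which are not replicates, and both sets come from the same 2 samples.

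The median summit position was -49 bp (interquartile range -226 to 180 bp) in weak promoter peaks and -156 bp (-255 to -69 bp) in optimal promoter peaks. In the 50 bp from -200 to -150 bp lay 7.34% of weak and 16.4% of optimal promoter summits, against 4.95% of bases. Weak promoter peaks thus also had their highest density upstream, but a lower one. More than 100 bp downstream of the start lay 1261 weak promoter summits (32.1%) and 60 optimal promoter summits (4.82%). Of these 1261, 68 (5.39%) were within 100 bp of the start of another annotated transcript of a protein-coding gene. The same share was not counted for all bases in that range or for optimal promoter summits, so it is a description only. The strongest member in that range was at erp-44.1, an endoplasmic reticulum protein gene, 218 bp downstream in an intron, with a signal of 29.9 and replicate ranks of 3794 and 2610. The member at ldh-1, the lactate dehydrogenase gene, lay 432 bp downstream, also in an intron, with a signal of 29.6 and ranks of 2361 and 2687.

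**Figure D2:**
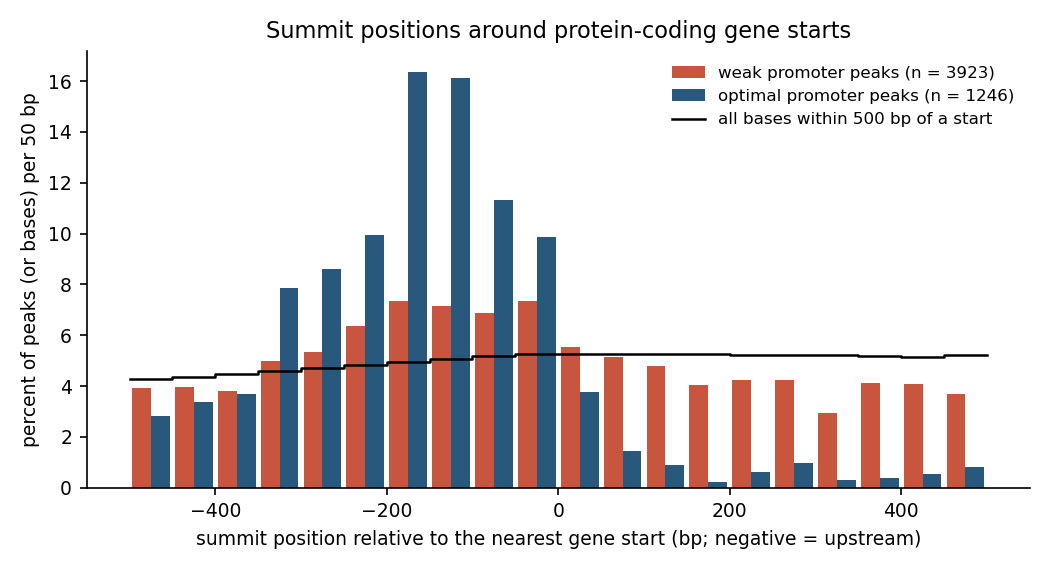
Bars give the percent of weak and optimal promoter summits in each 50 bp from 500 bp upstream (negative) to 500 bp downstream of the nearest protein-coding gene start, and the line gives the same share for all bases in that range. Optimal promoter summits gather upstream, with 16.4% from -200 to -150 bp, where weak promoter summits reach 7.34%, and weak promoter summits go on downstream of the start.

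Coding exons held 835 weak promoter summits, 21.3% (CI 20.03 to 22.6%), against 12 optimal promoter summits, 0.963% (CI 0.552 to 1.68%), a difference of 20.3 points (18.9 to 21.7; adjusted p = 9.75e-91 by Fisher's exact test). The bases within 500 bp of a start are coding in 28.6%. Introns held 19.8% of weak and 6.34% of optimal promoter summits (difference 13.5 points, 11.5 to 15.2; Fisher's exact adjusted p = 3.83e-33), and 3' UTRs held 3.21% and 0.642% (adjusted p = 4.54e-08 by the same exact test). Summits outside protein-coding genes made up 49.6% of weak and 85.6% of optimal promoter summits, against 40.1% of bases (difference -36.1 points, -38.5 to -33.5; Fisher's exact adjusted p = 1.82e-122). For 5' UTRs the shares were 6.12% and 6.42%, and the difference of -0.303 points had an interval of -1.96 to 1.16 (Fisher's exact adjusted p = 0.686).

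Weak promoter peaks were also less often shared between genes. A further start lay within 500 bp of 324 weak promoter summits (8.26%) and 389 optimal promoter summits (31.2%; difference -23.0 points, -25.7 to -20.3; Fisher's exact adjusted p = 1.02e-80). Divergent starts, which can share one intergenic region, were present at 5.12% and 26.97% (adjusted p = 1.52e-90 by the same exact test). Examples among the strongest members were mboa-7, a lysophospholipid acyltransferase gene, with git-1, and toc-1 with daf-41, a co-chaperone gene. The gene of the nearest start began within 500 bp behind the end of a gene on the same strand, as operon genes do, at 20.7% of weak and 14.1% of optimal promoter peaks, against 18.1% of all protein-coding genes (difference 6.55 points, 4.16 to 8.78; Fisher's exact adjusted p = 2.41e-07). Examples were imp-3, of the signal peptide peptidase family, and pnn-1.

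The upstream and coding exon shares changed along the signal range, and their differences were small at the limit. From the lowest to the highest quartile of signal, weak promoter summits were upstream in 50.9%, 47.5%, 56.0% and 74.0%, and in coding exons in 26.4%, 27.4%, 22.9% and 8.46%. The 300 strongest weak promoter peaks had signals of 24.4 to 30.91, and the 300 weakest optimal promoter peaks had signals of 30.93 to 42.3. In a comparison chosen after the data were seen, and given without a test, 83.3% of these weak promoter summits were upstream (CI 78.7 to 87.1%), against 85.3% of the optimal promoter summits (CI 80.9 to 88.9%). Coding exons held 2.00% of them (CI 0.920 to 4.29%) against 1.00% (CI 0.341 to 2.90%). Both groups had a median position of -146.5 bp. A further start was within 500 bp of 23.0% (CI 18.6 to 28.1%) against 25.7% (CI 21.1 to 30.9%), and 95.7% against 99.0% overlapped both replicates. The intervals of these position shares overlap. The share close behind a gene on the same strand did not follow the signal in this way. From the lowest to the highest quartile it was 21.4%, 19.9%, 21.1% and 20.3% in weak promoter peaks. At the limit it was 17% in the 300 weak promoter peaks (CI 13.2 to 21.7%), against 12.7% in the 300 optimal promoter peaks (CI 9.37 to 16.9%), and it was also 17% in the 300 strongest optimal promoter peaks. The 300 weakest members were upstream in 48.7% and in coding exons in 27.7%, close to the shares of bases, 47.8% and 28.6%.

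The share of peaks at a gene start was then followed along the whole pooled list. Per 1000 peaks by rank, the share with a summit at a gene start was 61.6% and 47.4% in the first 2000 peaks, 42.1% in ranks 2001 to 3000, which hold both kinds, 31.2% in ranks 3001 to 4000, 25.7% in ranks 4001 to 5000 and 22.1% in ranks 5001 to 6000. From rank 7001 on it stayed between 18.9% and 21.0%, while 18.8% of the genome lies within 500 bp of a start. The upstream share was lower down the list but not by a steady fall. It was 68.9% in ranks 4001 to 5000, 57.1% in ranks 6001 to 7000, 55.2% in ranks 7001 to 8000, 50.7% in ranks 8001 to 9000 and 60.9% in ranks 9001 to 10000 (CI 54.1 to 67.3%). From rank 10001 on it ranged from 44.8% to 54.6%. Replicate support fell over the same range of ranks.

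**Figure D3:**
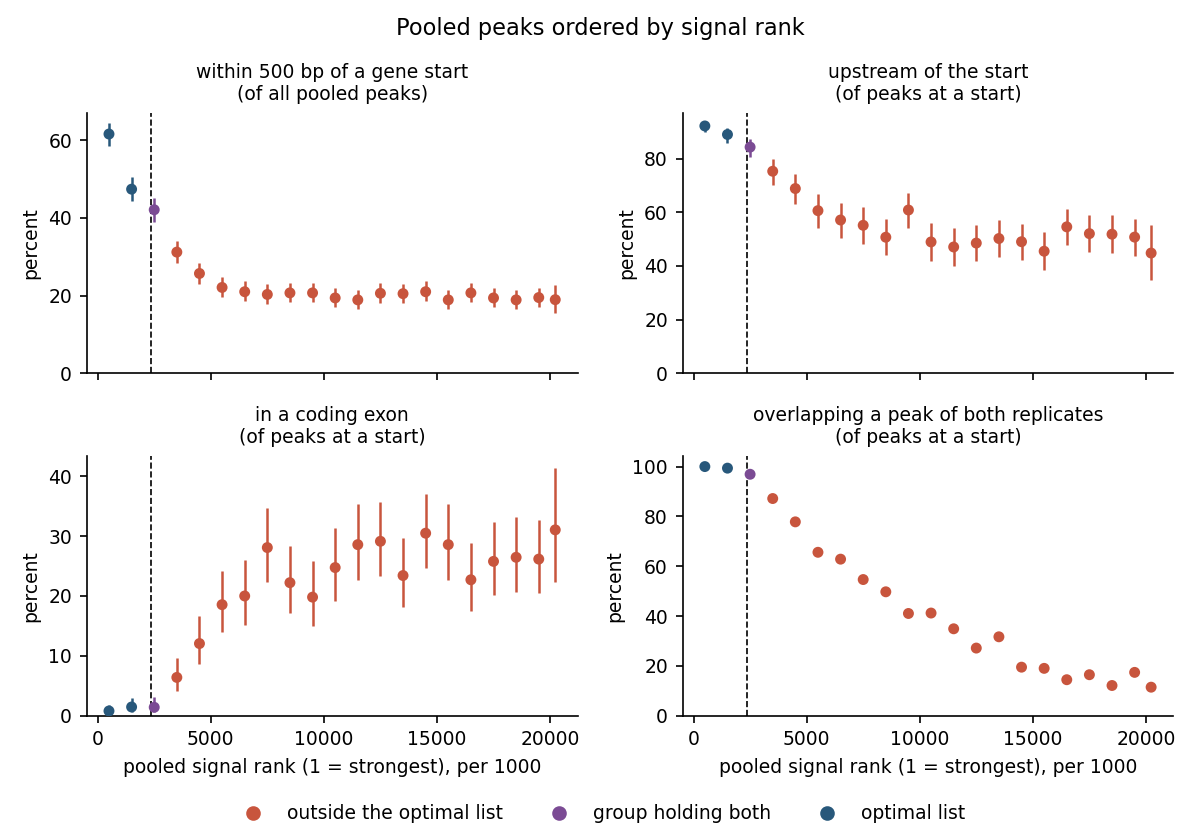
Points give, per 1000 pooled peaks by signal rank, the percent at a gene start. Of the peaks at a start they give the percent upstream of it, in a coding exon and overlapping a peak of both replicates. Lines are 95% Wilson intervals, which the panel of both replicates does not have. The dashed line is the end of the optimal list. Colours separate peaks outside the list, the group that holds both, and the list itself. The share at a start goes from 61.6% in the strongest 1000 to 22.1% in ranks 5001 to 6000. The list ends inside ranks 2001 to 3000, so groups of 1000 cannot show if there is a step at its end.

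Weak promoter peaks lay at 3977 of 19973 protein-coding genes, 19.9%, and optimal promoter peaks at 1633 genes, 8.18%. Both kinds were found at 139 genes, 0.696% of all, which is 3.50% of the genes with a weak and 8.51% of those with an optimal promoter peak. At 3838 genes a weak promoter peak was the only kind. The median pooled rank of weak promoter peaks was 10474. From rank 7001 on, peaks lay at a start in 18.9% to 21.0%, close to the 18.8% of the genome that lies there. Of the genes with a weak promoter peak, 271 had 2 or more of them, with up to 3. The rule keeps weak peaks clear of optimal ones, so the number with both kinds is set in part by peak width. The median gap from a weak promoter summit to the nearest optimal peak was 12904 bp, and 139 summits lay within 500 bp of one. The quartile of highest signal covered 1121 genes, 5.61% of all.

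Gene lists were read against these 2 backgrounds, by counts and without a set test. The lists were chosen with earlier results of these data known. Among genes of protein synthesis and turnover, weak promoter peaks lay at 12 of 31 aminoacyl-tRNA synthetase genes (38.7%, CI 23.7 to 56.2%), which load amino acids onto tRNAs, and optimal promoter peaks at 3. All 12 had a weak summit upstream of the start, against 62.3% of all genes with a weak promoter peak, and the median of their strongest signals was 19.2 against 14.4 over all such genes. The peak 28 bp upstream of dars-1, the aspartyl-tRNA synthetase gene, had a signal of 25.295 and replicate ranks of 2848 and 2793. The peak 151 bp upstream of sars-2, a seryl-tRNA synthetase gene, had 27.9 and ranks of 7302 and 1858. Mitochondrial ribosomal protein genes had weak promoter peaks at 21 of 66 (31.8%, CI 21.8 to 43.8%) and optimal ones at 15. The peak 139 bp upstream of mrps-12 had a signal of 26.6 and ranks of 3810 and 3813.

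Cytosolic ribosomal protein genes had weak promoter peaks at 17 of 81 (21.0%), against 19.9% of all genes. Optimal promoter peaks lay at 64 of 81 (79.0%, CI 68.9 to 86.5%). Of the 17 genes, 6 had both kinds and 11 had a weak promoter peak only. Of the 81 genes, 6 had neither kind. The rule keeps weak peaks clear of optimal ones, so few of these genes were open to a weak peak alone. The 21.0% can therefore not be set directly against the 19.9%. Of the ribosomal protein genes without an optimal promoter peak, 11 had a weak one and 6 did not. Over all 19973 genes, 5471 had either kind and 3838 had a weak promoter peak only. The strongest weak promoter peaks of the list were at rpl-32, 351 bp upstream with a signal of 28.4, and rps-8, 277 bp upstream with 27.3. Proteasome genes had weak promoter peaks at 10 of 33 (30.3%), all 10 with one upstream, and optimal ones at 14. The peak 158 bp upstream of pbs-4, a core particle subunit gene, had a signal of 29.5 and ranks of 2667 and 2024. Translation factor genes had 12 of 42 weak and 20 of 42 optimal, and splicing factor genes 7 of 39 weak and 16 of 39 optimal.

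Nuclear pore genes had weak promoter peaks at 17 of 40 (42.5%, CI 28.5 to 57.8%) and optimal ones at 18. Of the 17 genes, 14 had an upstream summit, and 9 of the 40 belonged to the quartile of highest signal (22.5%, CI 12.3 to 37.5%). Besides npp-16, the peak 140 bp upstream of npp-9 had a signal of 26.5 and ranks of 3188 and 2568, and the peak 276 bp upstream of imb-2, an importin beta gene, had 27.4 and ranks of 2928 and 3950. Subunit genes of the vacuolar ATPase, the proton pump of acidic organelles, had weak promoter peaks at 9 of 21 (42.9%) and optimal ones at 7, but 5 of the 9 were upstream and their median signal was 13.7.

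For signalling and tissue lists the side of the summits is given as counts, without a test between lists. Of 27 Wnt pathway genes, 10 had a weak promoter peak (37.04%, CI 21.5 to 55.8%) and 1 an optimal one. Of the 10 genes, 9 had an upstream summit. The median of their strongest signals was 15.4, against 14.4 over all genes with a weak promoter peak. After dsh-2, the strongest were sys-1, a beta-catenin gene, 241 bp upstream with a signal of 27.3 and ranks of 20660 and 2363, and pop-1, the TCF factor gene of the pathway, 124 bp upstream with 24.6 and ranks of 10850 and 3136. Both stood much higher in replicate 2 than in replicate 1. Of 29 muscle marker genes, 10 had a weak promoter peak (34.5%, CI 19.9 to 52.7%), 9 of them upstream, with a median signal of 22.2. The peak 150 bp upstream of unc-89, a giant protein gene of the sarcomere M-line, had a signal of 30.2 and ranks of 2281 and 3369, and mlc-1, a myosin light chain gene, had 26.1 and ranks of 3751 and 3309. Synapse genes also had 10 of 29, of which 4 were upstream. The strongest, at unc-10, an active zone gene, lay 360 bp downstream of the start with a signal of 24.9. Hypodermis markers had 6 of 18, 4 of them upstream, and intestine markers 5 of 23, 2 of them upstream. Germline markers had 2 of 25 with 1 upstream, and pan-neuronal markers 4 of 15 with 2 upstream. Optimal promoter peaks lay at 5 of 29 muscle, 5 of 29 synapse, 5 of 15 pan-neuronal and 1 of 25 germline genes. None lay at the hypodermis or intestine markers. Among the other signalling lists, the Notch pathway had 5 of 16 with 4 upstream, the LET-23 and Ras pathway 5 of 15 with 3 upstream, the TGF-beta and dauer pathway 5 of 17 with 3 upstream, and the insulin and TOR pathway 3 of 18 with 2 upstream. Over all genes with a weak promoter peak, 62.3% had one upstream. In whole larvae the tissue in which a site was bound cannot be read from the peaks.

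Transcription factor families varied around the background. Of 274 nuclear hormone receptor genes, 73 had a weak promoter peak (26.6%, CI 21.8 to 32.2%) and 9 an optimal one (3.28%). The peak 48 bp upstream of nhr-58 had a signal of 30.6 and ranks of 1755 and 4412. Of 96 homeobox genes, 24 had a weak promoter peak (25%, CI 17.4 to 34.5%) and 2 an optimal one. After unc-42 the strongest was ceh-43, a distal-less type homeobox gene, 376 bp downstream with a signal of 24.2. The summit of that peak was inside a tRNA gene. GATA factor genes had 5 of 12 and no optimal promoter peak, with elt-7, an intestine factor gene, at a signal of 20.3 and 8 bp upstream. Of 38 bHLH factor genes, 8 had a weak promoter peak (21.1%, CI 11.1 to 36.3%) and 3 an optimal one (7.89%), both close to the shares of all genes. Of 20 T-box factor genes, 1 had a weak promoter peak (5%, CI 0.888 to 23.6%) and none an optimal one.

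Several large gene families were below the background. Of 1255 chemoreceptor genes, 133 had a weak promoter peak (10.6%, CI 9.01 to 12.4%) and 3 an optimal one (0.239%), and 9 belonged to the quartile of highest signal (0.717%). The strongest, 358 bp upstream of str-12, had a signal of 21.2. C-type lectin genes had 20 of 240 (8.33%) and F-box genes 45 of 327 (13.8%). Major sperm protein genes had 0 of 35 for both kinds, which allows a share of up to 9.89% by the Wilson interval. Histone genes had 6 of 72 (8.33%), of which his-3 and his-4 shared a peak with a signal of 30.1. Histone genes have near-identical copies, so which copy a peak belongs to is uncertain.

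**Figure D4:**
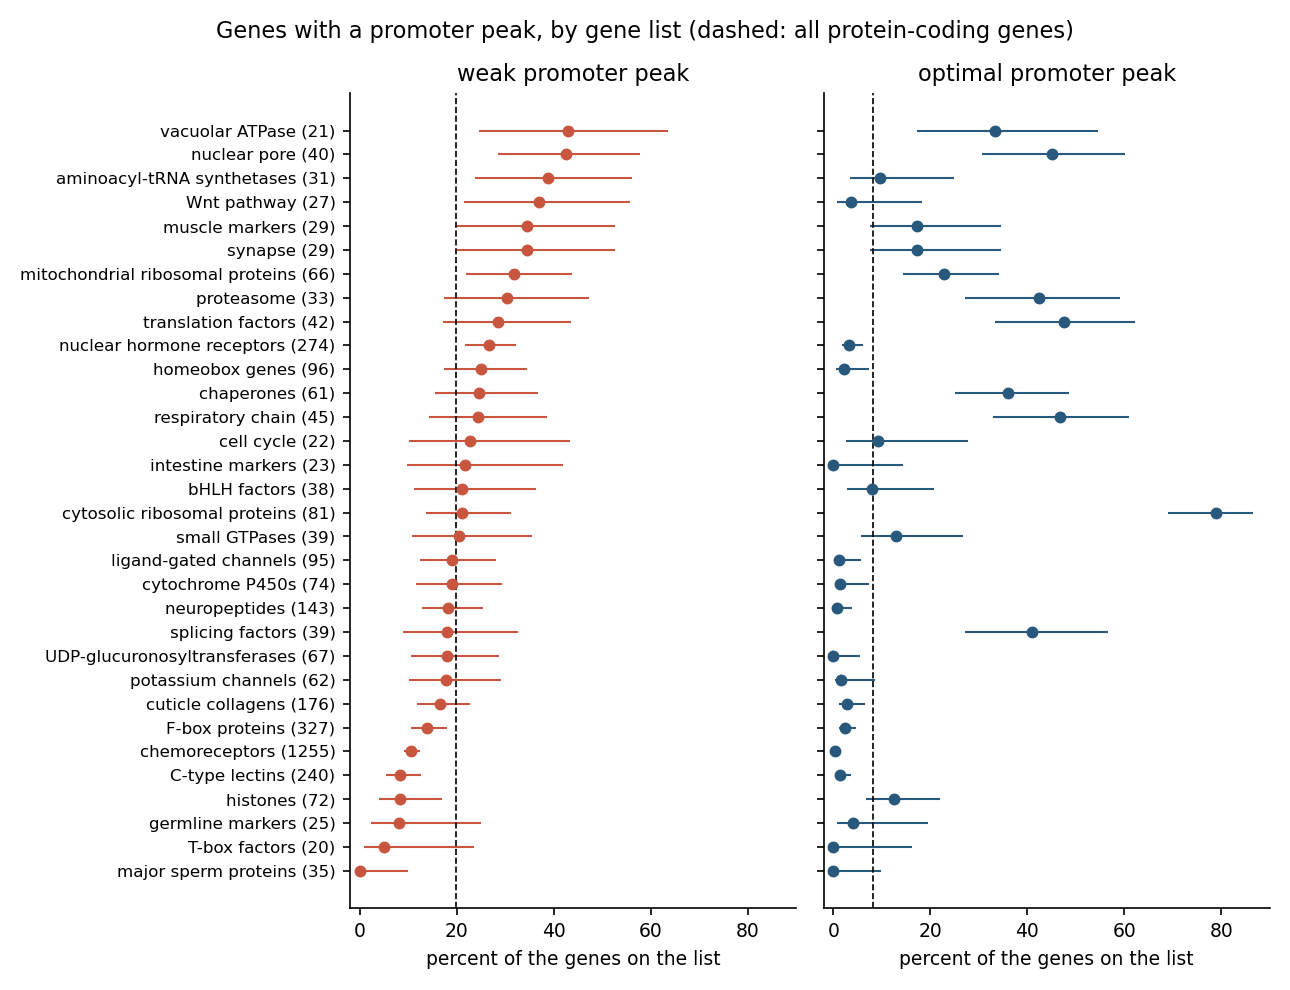
Points give the percent of genes with a weak (left) or an optimal (right) promoter peak for each list of 20 or more genes (number of genes in brackets), with 95% Wilson intervals; dashed lines are the shares of all protein-coding genes, 19.9% and 8.18%. Ribosomal protein genes stand at 21.0% for weak and 79.0% for optimal promoter peaks, and chemoreceptor genes are below both backgrounds.

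Weak promoter peaks were more often on X than optimal promoter peaks, with 658 (16.8%, CI 15.6 to 17.97%) against 145 (11.6%, CI 9.97 to 13.5%), a difference of 5.14 points (2.92 to 7.19; Fisher's exact adjusted p = 9.43e-06). X holds 13.7% of protein-coding genes. It also held a large number of relaxed peaks, and of its 3827 peaks outside the optimal list 17.2% were at a gene start (CI 16.03 to 18.4%), against 21.1 to 25.9% on the autosomes. Of its bases, 15.01% lie within 500 bp of a start, against 17.6 to 22.7% on the autosomes. Of its 431 optimal peaks, 33.6% were at a start, against 53.5 to 60.8% on the autosomes. Among weak promoter peaks the share on X was 15.1% in the lowest quartile of signal and 19.7% in the highest. At the limit it was 19.7% in the 300 strongest weak promoter peaks (CI 15.6 to 24.5%). It was 16.7% in the 300 weakest optimal promoter peaks (CI 12.9 to 21.3%) and 10% in the 300 strongest. A higher share on X was therefore not a mark of low signal among weak promoter peaks. The strongest members on X were mboa-7, acl-1, gid-2, attf-5 and C52B9.4, with signals of 30.11 to 30.77. Acl-1 encodes an acyltransferase, and its peak ranked 1828 and 2473.

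Small non-coding genes (tRNA, snoRNA, snRNA or rRNA) lay within 100 bp of 39 weak (0.994%) and 37 optimal promoter summits (2.97%; difference -1.98 points, -3.10 to -1.09; Fisher's exact adjusted p = 5.11e-06). Of the 39, 26 were nearest a tRNA, 8 a snoRNA and 5 a snRNA gene, and of the 37, 21, 13 and 3. The strongest of the weak promoter peaks belonged to them, since its summit was inside a tRNA gene. In the quartile of highest signal 21 of 981 lay near such a gene (2.14%), and in the lowest 3 of 981 (0.306%).

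Base composition around the summits also varied with the signal. Windows of 50 bp either side of weak promoter summits had 37.9% ± 8.19 G or C (SD over 3923 windows), against 47.6% ± 6.97 at optimal promoter summits (1246 windows) and 34.2% ± 8.33 in windows centred 150 bp upstream of every protein-coding start (19973 windows). By quartile of signal, from lowest to highest, the mean at weak promoter summits was 36.3%, 36.6%, 37.5% and 41.0%. The 4 CG-holding 6-mers were chosen after the data were seen, as those most in excess at optimal promoter summits over the upstream windows, so their level at optimal peaks is a description only. Several share GCGC and can overlap. At least 1 of the 4 was present at 538 weak promoter summits (13.7%, CI 12.7 to 14.8%), 56.3% of optimal ones and 8.84% of the upstream windows. By quartile the share in weak promoter windows was 7.24%, 7.44%, 12.24% and 27.9%, of which the lower 2 were under the share of the upstream windows. In these lower 2 quartiles 50.9% and 47.5% of summits were upstream of the start. No reference windows were placed downstream, so this sets unlike positions side by side. The 300 strongest weak promoter peaks had 41.3% (CI 35.9 to 46.98%), against 43.3% (CI 37.8 to 48.99%) in the 300 weakest optimal ones. Weak summits upstream of the start had 18.9%, those at or downstream of it 6.77% and those in coding exons 3.95%.

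Of the preset 6-mers, searched on both strands of the same windows, GAGAGA was present at 11.5% of weak and 22.3% of optimal promoter summits and 8.42% of upstream windows, with 18.5% in the quartile of highest signal. TAATTA was present at 4.13% of weak and 1.44% of optimal promoter summits and 5.80% of upstream windows. TGATAA was present at 8.92%, 1.61% and 11.8%, and CACGTG at 2.01%, 2.89% and 1.79%. TAATTA and TGATAA were thus less frequent in both sets than in the upstream windows. In the lowest quartile of signal, however, TAATTA was present at 4.69% (CI 3.53 to 6.20%) and TGATAA at 11.3% (CI 9.48 to 13.45%). These intervals hold the shares of the upstream windows. In the highest quartile the shares were 3.77% and 6.22%. G and C content was higher in both sets than in the upstream windows, and a link to these 6-mers was not tested.

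**Figure D5:**
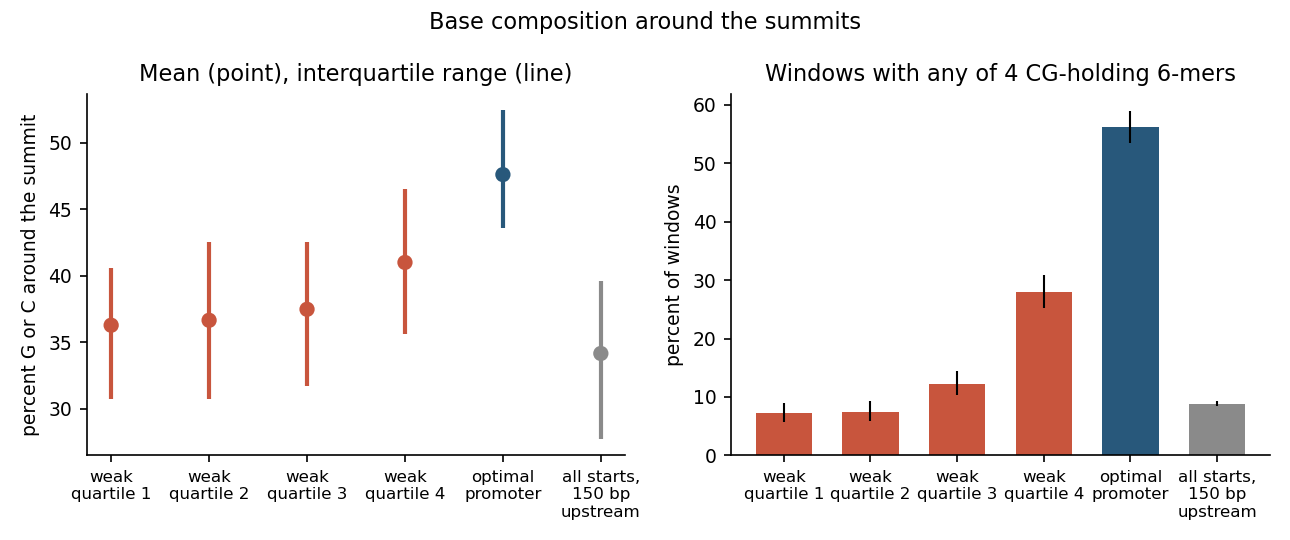
Left, mean percent of G or C in the 50 bp either side of the summit (points) with the interquartile range over windows (lines); right, percent of windows with any of the 4 CG-holding 6-mers with 95% Wilson intervals, for weak promoter peaks by quartile of signal (1 lowest), optimal promoter peaks and windows 150 bp upstream of all protein-coding starts. The 6-mer share is 27.9% in the highest quartile of weak promoter peaks, 56.3% in optimal promoter peaks and 8.84% in the upstream windows.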

How the data were processed

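Peaks came from ChIP-seq of 2 biological replicates of 1 group. The authors deposited relaxed peak lists per replicate and pooled, made against a control alignment as input for IDR, and an optimal list, per the file descriptions deposited with the samples. The deposited signal and the deposited score of each peak are the authors' values. The signal ranked peaks within a list, and the score was not used. How reads were aligned, how peaks were called and thresholded, and how deeply each replicate was sequenced is not given in the sources used here. Precision is therefore judged from peak numbers.

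The ce11 lists were placed on WBcel235 with the Ensembl release 115 annotation (Python 3.11.15, pandas 2.3.3, SciPy 1.17.1). A summit within 500 bp of the start of any of 19973 protein-coding genes was assigned to it, on either side, and position was taken from the nearest start. Of the pooled peaks, 69 that are not optimal overlap an optimal peak and belong to neither set. A replicate supported a peak when any of its relaxed peaks overlapped by 1 bp. Location was read at the summit, with coding exon before UTR before intron. Position measures not used to choose the peaks were tested with two-sided Fisher's exact tests, adjusted by the Benjamini-Hochberg method over 11 measures. Wilson intervals on shares and Newcombe intervals on differences are at 95% and cover counting error only. The assignment and the comparison were tested on simulated data.

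The members, the 43 gene lists and the preset 6-mers were chosen with earlier results of these data known. Named are the 20 strongest members, the 5 strongest over 100 bp downstream and on X, the 5 weakest members and optimal promoter peaks, the 5 with the best worse replicate rank, up to 4 members per list, and ceh-82; not every one is described. Peaks shown as sequence were the strongest that were not on chromosome I and whose windows overlapped no annotated UTR. The UTR limit was added after the data were seen. The member at erp-44.1 lies on chromosome I and is therefore not shown. Alternatives changed the distance, the starts, the gap to optimal peaks, the signal range, the support rule and the replicates used.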

Additional observations from a re-analysis of the deposited data

How the results depend on the processing

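The upstream and coding exon differences between weak and optimal promoter peaks kept their direction and stayed past the threshold under all alternatives run. With starts within 250 bp there were 2312 weak promoter peaks at 2420 genes, 59.5% upstream and 47.1% with both replicates. With 1000 bp there were 6515 at 6372 genes, with 53.7% and 42.4%. The members at or above the median signal, 1962 peaks at 2113 genes, had 64.98% upstream, 15.6% in coding exons and 67.5% with both replicates. Leaving out a replicate used the strongest peaks of the other, as many as the pooled list holds, with its 2346 strongest as the optimal list. This gave 54.5 to 55.6% upstream and 21.9 to 24.3% in coding exons, and no support by both could be computed. Support by both was 30.8% with replicate summits within 100 bp, 29.03% with as many of the strongest replicate peaks as the pooled list holds and 0.153% with as many as the optimal list. Added after seeing the data, the 1751 members with both replicates had 64.5% upstream and 15.8% in coding exons. The 823 members at rank 5000 or better had 76.3% upstream, 6.80% in coding exons and 86.8% with both replicates, and the 3100 beyond it had 52%, 25.13% and 33.5%. The difference in the upstream share was -13.7 points for the first of these and -37.97 points for the second. No paired analysis was possible because the samples form 1 group. Fisher's tests treat peaks as independent, which neighbouring peaks may not be, and the depth that limits weak peaks is unknown.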

Other observations

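The ceh-82 gene itself (chrII:1732232-1733291, plus strand) had neither a weak nor an optimal promoter peak. The nearest pooled peak was 7205 bp away, with a signal of 11.3 and pooled rank 18946, and the nearest optimal peak was 86671 bp away. A relaxed peak of replicate 2 lay 1107 bp from the gene at rank 17412.

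Some weak promoter summits lay within 500 bp of the starts of a pair of genes. The stress-inducible small heat shock genes hsp-16.2 and hsp-16.41 shared 1 weak promoter peak, 137 bp upstream of the first and 84 bp upstream of the second, with a signal of 23.8 and ranks of 1956 in replicate 1 and 17751 in replicate 2. The cell cycle kinase gene cdk-1 and the translation initiation factor gene iff-1 shared a peak with a signal of 27.02, ranked 13214 and 1623. Both pairs stood high in 1 replicate and low in the other. Of cell cycle genes, 5 of 22 had a weak promoter peak (22.7%), and of respiratory chain genes 11 of 45 (24.4%), against 19.9% of all genes. Optimal promoter peaks lay at 2 of the 22 and at 21 of the 45 (46.7%), against 8.18% of all genes. Of the respiratory chain genes, 9 had a weak promoter peak only and 15 had neither kind. With an optimal one at 21 of them, their 24.4% can not be set directly against the 19.9%. The weak peaks of the F-box genes fbxa-76 and fbxa-77 were likewise 1 peak, with a signal of 28.9 and ranks of 3257 and 3500.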
